A study of Mus musculus with 8 samples.

Results

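The annexins are proteins that bind the phospholipids of cell membranes when calcium rises. They take part in membrane repair, vesicle traffic, the linking of membrane to the actin cytoskeleton and the surface control of plasmin and of inflammation. Each has a conserved core that holds the calcium sites and a variable N-terminal tail that binds partners, many of them S100 proteins. In liver, annexins are found in biliary epithelium and other ductal cells as well as in blood cells. The members described here were taken from the deposited table by gene symbol. They were *Anxa1*, *Anxa2*, *Anxa3*, *Anxa4*, *Anxa5*, *Anxa6*, *Anxa7*, *Anxa8*, *Anxa11* and *Anxa13*, which made 10 genes of 23467. All 10 reached the mean of 1 RPKM (reads per kilobase of transcript, scaled to the size of the library) that the test required, as did 13421 genes in all. *Anxa13* reached this mean only through 1 control library.

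RNA was sequenced from cultured mouse hepatoblasts (iHBs), the bipotent progenitors of the fetal liver taken from E14.5 livers, from hepatocyte-like cells derived from them with 12.5 ng/ml oncostatin M (iHPs, 5 days per the labels, while the methods of the study give another length) and from biliary epithelial cells derived in Matrigel (iBECs, 14 days). Control cells were wild type, with 1 library in each of the 3 stages. The L1L2_Alb cells carried the genotype Lats1-/-;Lats2f/fl;Alb-cre, with 1 iHB, 2 iHP and 2 iBEC libraries, 5 in all. LATS1 and LATS2 are the kinases that restrain the transcriptional co-activators YAP and TAZ. Both genotypes were on a B6;129 mixed background. *Lats1* is deleted in every cell of these embryos, whereas *Lats2* is deleted only where the albumin promoter drives Cre. The labels do not say whether libraries of one condition came from separate embryos or cultures, so the p-values measure only the spread between these samples. *Lats1* (5.38 to 11.2 RPKM in controls, 7.12 to 22.7 in L1L2_Alb) and *Lats2* (6.90 to 10.1 and 10.9 to 27.6 RPKM) were not lower in the libraries labelled L1L2_Alb. *Lats2* was even called higher over the 3 stages, by a fitted fold of 1.87 (limma adjusted p = 0.0312). The study itself reports reduced LATS1/2 expression in L1L2_Alb cells, and its main text does not say whether RNA or protein was measured. The whole-gene RNA values here do not show a reduction, and the measures may differ. A value for a whole gene does not resolve a deleted exon, so the genotype is given as labelled. The YAP target genes *Ctgf* and *Cyr61* were at 201 to 523 and 91.4 to 194 RPKM in controls, and at 412 to 2469 and 349 to 848 RPKM in the libraries labelled L1L2_Alb.

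Promoter windows are shown first, because YAP and TAZ act on promoters and enhancers through TEAD factors, often beside AP-1. They are those of the members above the stage control in every L1L2_Alb library, except *Anxa3*, for which no window was available. *Anxa2* is among them although its difference by genotype did not pass the test used below. Each window is the 250 bases before the start of transcription, 5′ to 3′ on the strand of the gene, from RefSeq on GRCm38.p6. Capitals mark a match to the TEAD core GGAATG, searched on both strands as GGAATG or CATTCC, or to the AP-1 core TGANTCA, which reads as the same motif on both strands. The 4 windows lie at chr19:20390672-20390921 (minus strand, *Anxa1*), chr9:69453433-69453682 (plus strand, *Anxa2*), chr3:36475888-36476137 (minus strand, *Anxa5*) and chr14:34085729-34085978 (plus strand, *Anxa8*).
Anxa1: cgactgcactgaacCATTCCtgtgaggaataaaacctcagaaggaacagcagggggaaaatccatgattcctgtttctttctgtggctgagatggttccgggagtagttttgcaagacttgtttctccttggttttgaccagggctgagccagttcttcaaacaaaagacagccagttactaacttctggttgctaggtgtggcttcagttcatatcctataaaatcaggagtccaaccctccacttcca
Anxa2: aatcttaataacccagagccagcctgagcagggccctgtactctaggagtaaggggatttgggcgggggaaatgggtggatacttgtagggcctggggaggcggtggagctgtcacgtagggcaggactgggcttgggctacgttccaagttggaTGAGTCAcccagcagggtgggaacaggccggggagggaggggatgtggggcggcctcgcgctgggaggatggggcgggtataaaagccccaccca
Anxa5: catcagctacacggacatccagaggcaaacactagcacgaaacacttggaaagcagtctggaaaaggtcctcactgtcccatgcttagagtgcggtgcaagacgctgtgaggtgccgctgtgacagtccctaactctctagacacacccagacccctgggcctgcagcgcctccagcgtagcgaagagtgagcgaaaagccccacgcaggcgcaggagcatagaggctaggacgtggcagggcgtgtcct
Anxa8: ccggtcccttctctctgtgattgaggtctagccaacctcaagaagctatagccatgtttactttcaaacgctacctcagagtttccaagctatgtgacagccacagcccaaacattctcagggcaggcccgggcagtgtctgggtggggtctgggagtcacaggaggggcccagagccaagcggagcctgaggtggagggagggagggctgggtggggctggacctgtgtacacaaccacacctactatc

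Windows were found for 7 of the 10 members, 9 windows in all, and none were available for *Anxa3*, *Anxa6* and *Anxa13*. The TEAD core occurred in 1 of the 9 windows, that of *Anxa1*, beginning at position -236 from the start. It occurred in 12.6% of all 32851 mouse windows of this length. The AP-1 core also occurred in 1 of the 9, that of *Anxa2* at -95, against 6.75% of all windows. A match to these letters is a description of the window, and no match says only that the letters are not in it.

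*Anxa2* and *Anxa1* were the most abundant annexins of these cultures. By mean RPKM over the 8 libraries *Anxa2* ranked 24th and *Anxa1* 51st of the 13421 genes tested. RPKM is a level per length, so the members can be set against each other within a library. *Anxa2* was above *Anxa1* in 7 of 8 libraries, and *Anxa1* was above *Anxa5* in 7 of 8. *Anxa5* was above *Anxa3*, and *Anxa3* above *Anxa8*, in 8 of 8. *Anxa8* and *Anxa4* could not be ordered, with *Anxa8* the higher in 0 of 3 control libraries and in 4 of 5 labelled L1L2_Alb. *Anxa6* was below *Anxa4* in 8 of 8 but above *Anxa8* in control iHBs (172 against 73.4 RPKM) and control iHPs (90.3 against 87.9 RPKM). In control iBECs *Anxa4* (147 RPKM) was above *Anxa3* (131 RPKM). *Anxa7*, *Anxa11* and *Anxa13* came last, in this order, in 8 of 8. The level of *Anxa11* was 25.2 to 51.7 RPKM, and *Anxa13* never passed 9.48 RPKM.

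**Figure D1:**
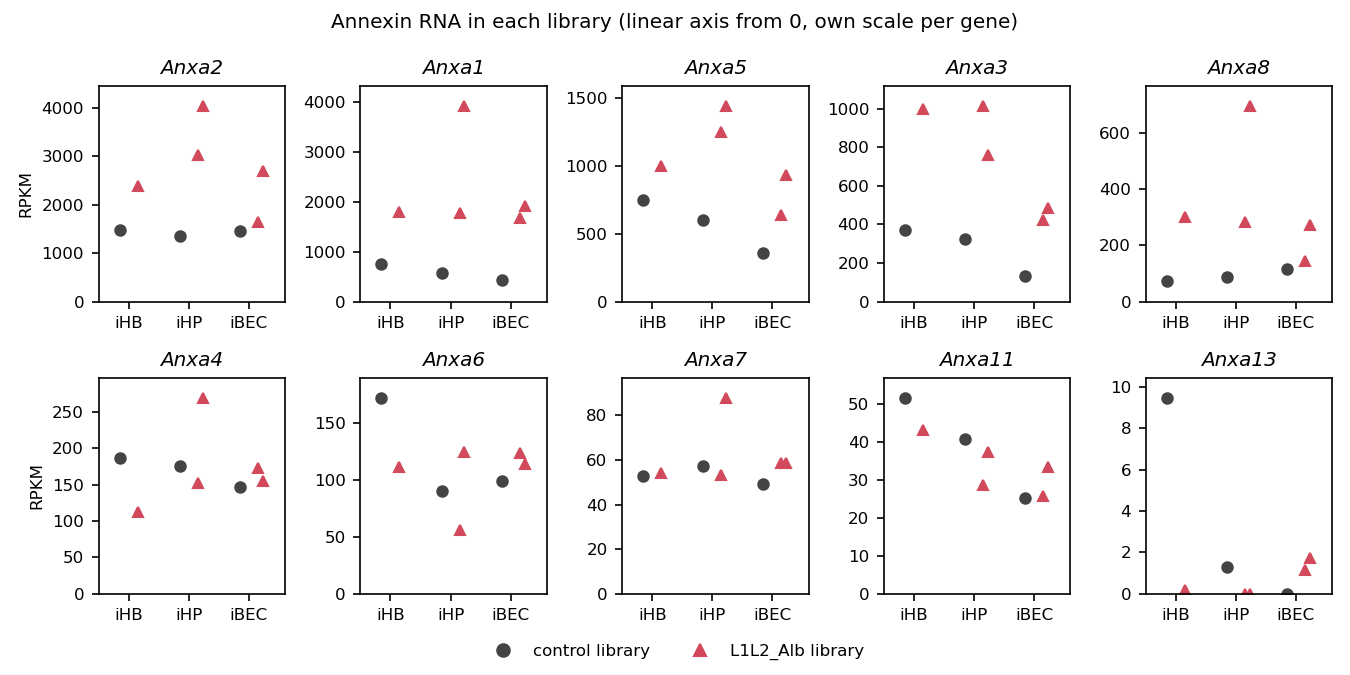
RPKM of each of the 10 annexins by stage, on a linear axis from 0 with its own scale per gene. Circles are control libraries and triangles libraries labelled L1L2_Alb, 1 point per library. In *Anxa1*, *Anxa2*, *Anxa3* and *Anxa8* all 5 triangles lie above all 3 circles.

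The first question was which annexins differ by genotype. *Anxa1*, *Anxa3*, *Anxa8* and *Anxa5* were higher in the libraries labelled L1L2_Alb over the 3 stages, by fitted folds of 3.68, 2.94, 3.20 and 1.91, and no annexin was called lower. That is 4 of 10 members called by limma at an adjusted p under 0.05, all higher, where 6.2% of all genes tested were called higher, 3.37% lower and 9.57% in either direction. The members were chosen with earlier results of these data known, which limits what this comparison can show. The balance over all genes depended on the setting, with 832 genes called higher and 452 lower as reported, 612 and 577 under upper-quartile scaling, 687 and 607 under quantile normalization, and 523 and 873 without the iBEC libraries. *Anxa1*, *Anxa2*, *Anxa3*, *Anxa5* and *Anxa8*, 5 of the 10, were higher in each of the 5 L1L2_Alb libraries than in the control of the stage, against 22.9% of all genes tested, and of these *Anxa2* did not pass the threshold. The median log2 difference of the 10 members was 0.53, against 0.06 for all genes tested. All differences by genotype are on the log2(RPKM + 1) scale and are adjusted for stage.

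*Anxa1* encodes lipocortin I, a glucocorticoid-induced protein that dampens inflammation through formyl peptide receptors. It was at 754, 572 and 439 RPKM in control iHBs, iHPs and iBECs. In the libraries labelled L1L2_Alb it was at 1794 RPKM in iHBs, 1778 and 3931 RPKM in iHPs, and 1668 and 1919 RPKM in iBECs. The groups did not overlap, and the lowest L1L2_Alb library, at 1668 RPKM, lay far above the highest control, at 754. The ratio to the control of the stage was 2.38 for the iHB library, 3.11 and 6.87 for the iHP libraries, and 3.80 and 4.37 for the iBEC libraries. The fitted difference was 1.88 (SE 0.313, limma adjusted p = 0.0107). Without the iHP libraries the adjusted p was 0.0638 and without the iBEC libraries 0.0606, so with either stage left out *Anxa1* was not called.

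*Anxa3*, an annexin of neutrophils and of several epithelia, gave the smallest adjusted p of the family. It was at 371, 324 and 131 RPKM in control iHBs, iHPs and iBECs. In L1L2_Alb cells it was at 997 RPKM in iHBs, 1016 and 761 RPKM in iHPs, and 421 and 487 RPKM in iBECs. Every L1L2_Alb library was above every control library, and the ratio to the control of the stage stayed between 2.35 and 3.71. The fitted difference was 1.56 (SE 0.193, limma adjusted p = 0.00404). *Anxa3* was called under each of the 14 alternative settings, with adjusted p from 0.00325 to 0.0442.

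*Anxa8* encodes an annexin with anticoagulant activity that is found in stratified epithelia. It was at 73.4, 87.9 and 117 RPKM in control iHBs, iHPs and iBECs. In L1L2_Alb cells it was at 302 RPKM in iHBs, 283 and 698 RPKM in iHPs, and 146 and 274 RPKM in iBECs. The groups did not overlap, though the ratio to the control of the stage was 4.11 in iHBs and 1.24 and 2.34 in iBECs. The fitted difference was 1.68 (SE 0.405, limma adjusted p = 0.0386). The call was kept under 7 of 14 alternatives and was lost without L1L2_Alb iHP replicate 1 (adjusted p = 0.0544), without L1L2_Alb iBEC replicate 2 (0.0826), without the iHB or iHP stage (0.169 and 0.186) with no filter (0.0986) and under upper-quartile scaling (0.060) or quantile normalization (0.0528).

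*Anxa5* encodes the phosphatidylserine-binding protein used to stain apoptotic cells. It was at 746, 599.9 and 360.0 RPKM in control iHBs, iHPs and iBECs. In L1L2_Alb cells it was at 997 RPKM in iHBs, 1249 and 1446 RPKM in iHPs, and 639 and 933 RPKM in iBECs. Each L1L2_Alb library was above its own control, but the groups overlapped across stages because control iHBs were above L1L2_Alb iBEC replicate 1. The fitted difference was 0.94 (SE 0.233, limma adjusted p = 0.0421). Leaving out any 1 of the 4 replicated L1L2_Alb libraries ended the call, with adjusted p of 0.0645 and 0.0613 without iHP replicates 1 and 2, and 0.0545 and 0.0879 without iBEC replicates 1 and 2. It was also lost without any 1 stage (0.0857 to 0.253), with no filter (0.0989) and with pairs averaged (0.0612).

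*Anxa2*, which forms a complex with S100A10 and binds plasminogen and tissue plasminogen activator at the cell surface, was at 1483, 1354 and 1459.7 RPKM in control iHBs, iHPs and iBECs. In L1L2_Alb cells it was at 2383 RPKM in iHBs, 3036 and 4047 RPKM in iHPs, and 1641 and 2698 RPKM in iBECs. The groups did not overlap, but the lowest L1L2_Alb library was only 1.12 times its control. The fitted difference was 0.88 (SE 0.284, limma adjusted p = 0.0916), with a 95% interval of 0.23 to 1.53. It passed the threshold under 0 of 14 alternatives, with adjusted p from 0.0681 to 0.428. All 5 L1L2_Alb libraries were above all 3 controls for 4 of the 10 members, *Anxa1*, *Anxa2*, *Anxa3* and *Anxa8*, against 9.18% of all genes tested.

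**Figure D2:**
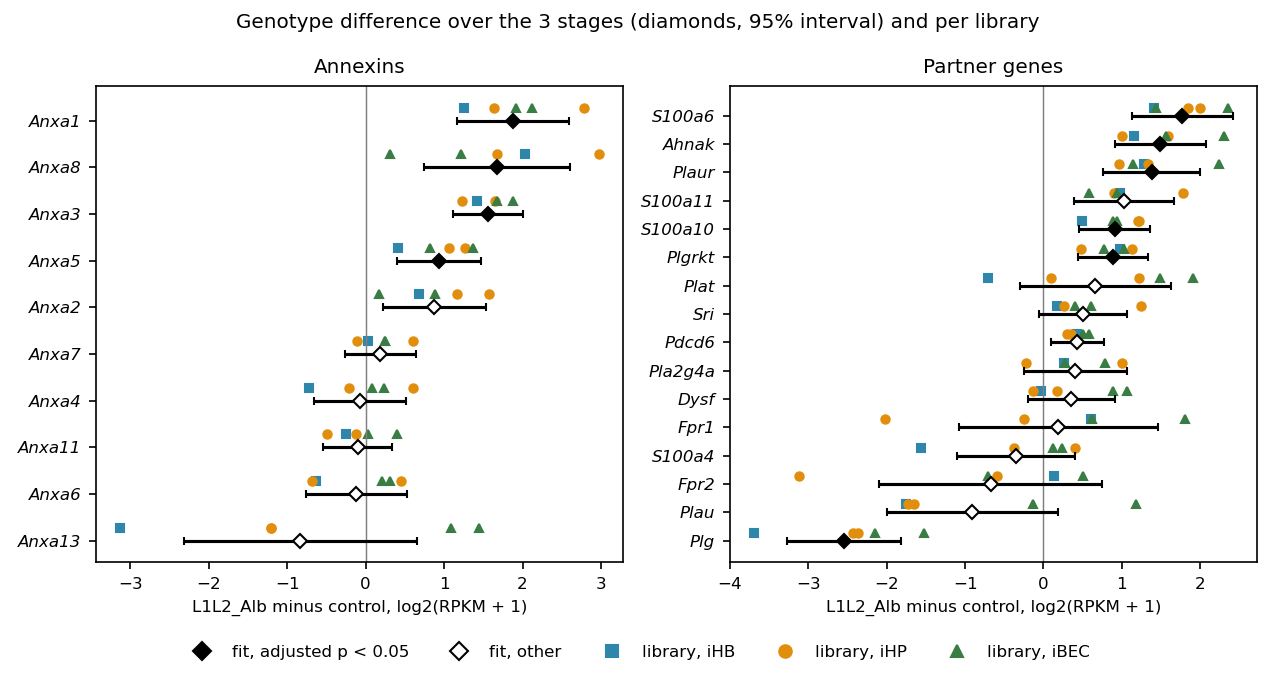
Difference between libraries labelled L1L2_Alb and controls on the log2(RPKM + 1) scale for the 10 annexins (left) and the 16 partner genes (right). Diamonds are limma fits over the 3 stages with 95% intervals, filled where the adjusted p was under 0.05, and coloured squares, circles and triangles are single iHB, iHP and iBEC libraries minus the control of the stage. The filled annexins *Anxa1*, *Anxa3*, *Anxa5* and *Anxa8* lie above 0, and *Anxa13* has the widest interval of the annexins.

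The other 5 members did not pass the threshold. *Anxa7*, synexin, which promotes the fusion of vesicles and binds sorcin, had a difference of 0.19 with a 95% interval of -0.26 to 0.64. *Anxa4*, an annexin of secretory and biliary epithelia, was at 147 to 187 RPKM in controls and 113 to 269.5 RPKM in L1L2_Alb, with a difference of -0.07 and an interval of -0.65 to 0.51. *Anxa11*, which binds S100A6 and tethers RNA granules to lysosomes, had a difference of -0.10 with an interval of -0.54 to 0.34. *Anxa6*, whose annexin core is duplicated, had a difference of -0.12 with an interval of -0.76 to 0.53. The limma adjusted p-values of *Anxa7*, *Anxa4*, *Anxa11* and *Anxa6* were between 0.604 and 0.901. The intervals of *Anxa4*, *Anxa6*, *Anxa7* and *Anxa11* reach less than 1 log2 unit either way, which leaves smaller differences undetermined.

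*Anxa13*, an annexin typical of intestinal epithelium, had the lowest level and the widest spread. It was at 9.48 RPKM in control iHBs, 1.30 RPKM in control iHPs and 0 in control iBECs. In L1L2_Alb cells it was at 0.197 RPKM in iHBs, 0 in both iHP libraries, and 1.12 and 1.73 RPKM in iBECs. Its order by genotype therefore differed by stage, with the controls higher in iHBs and iHPs and the L1L2_Alb libraries higher in iBECs. In reads, recovered as whole numbers from the deposited values, *Anxa13* had 334 in control iHBs and 7 in L1L2_Alb iHBs, 45 in control iHPs and 0 and 0 in L1L2_Alb iHPs, and 0 in control iBECs and 36 and 51 in L1L2_Alb iBECs. Scaled to library size the L1L2_Alb iHB library was 48.1-fold lower than its control (95% exact interval 23.1 to 121, counting error only). With a count of 0 set to a floor of 3 reads per library, the L1L2_Alb iHP libraries were at least 9.88- and 11.4-fold lower, and the L1L2_Alb iBEC libraries at least 15.4- and 23.7-fold higher, than the control of the stage. Over the 3 stages the fitted difference was -0.83 (SE 0.645, limma adjusted p = 0.472). It was -2.03 with an adjusted p of 0.0318 without the iBEC libraries and 0.03 without the iHB libraries. The mean of *Anxa13*, 1.73 RPKM over the 8 libraries, reached the level needed for testing only through control iHBs. Its place among the tested genes therefore rests on that library.

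**Figure D3:**
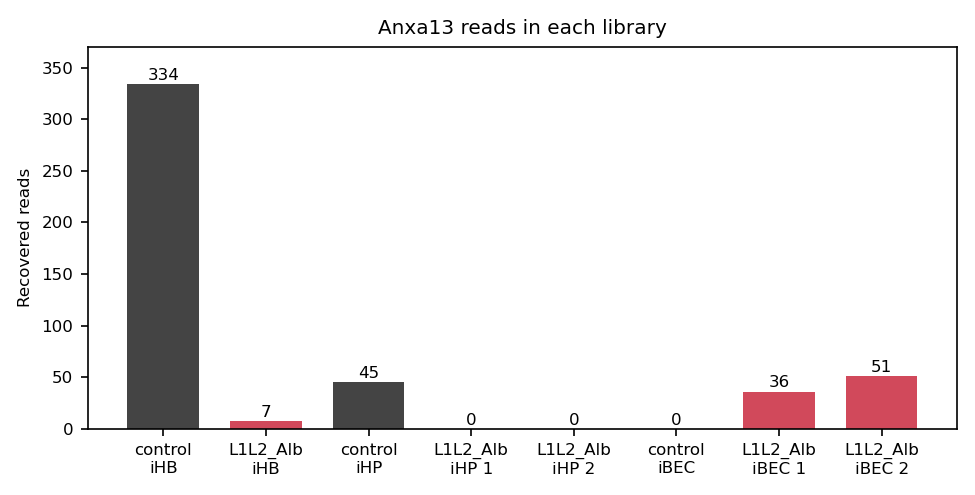
Recovered reads of *Anxa13* in each of the 8 libraries. Each bar is 1 library with its count above it, dark for control and red for L1L2_Alb, and the counts are not scaled to library size. Control iHBs hold 334 reads and control iBECs 0, whereas L1L2_Alb iBECs hold 36 and 51.

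Whether the genotype difference itself varied by stage was tested with the moderated F test of limma, on 2 residual degrees of freedom. It called 0 of 10 members and 0 of the 13421 genes tested (0.0%), with 733 genes at an unadjusted p under 0.05. *Anxa13* had the smallest p of the members, with an adjusted p of 0.230, and was the only 1 of the 10 under 0.05 unadjusted. It reached the mean needed for testing only through control iHBs. For the other 9 members the adjusted p was 1.00. The larger ratio of *Anxa8* in iHBs than in iBECs was therefore not shown to be a difference between stages.

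The make-up of the annexin pool also differed by genotype, but the share of a member did not always follow its level. Summed over the 10 members, annexins were at 3900, 3304 and 2828 RPKM in control iHBs, iHPs and iBECs. The sum was 1.74 times the control in the L1L2_Alb iHB library, 2.32 and 3.45 times in the iHP libraries, and 1.73 and 2.36 times in the iBEC libraries. *Anxa1* made up 17.4% ± 1.90 (SD, n = 3) of the sum in controls and 29.4% ± 4.87 (SD, n = 5) in L1L2_Alb, and its share was above that of the stage control in 5 of 5. *Anxa3*, *Anxa8* and *Anxa5* were also called higher by level, but their shares were above the stage control in 4, 3 and 2 of 5. The share of *Anxa5* was 16.7% ± 3.45 (SD, n = 3) in controls and 14.1% ± 1.45 (SD, n = 5) in L1L2_Alb. *Anxa2* made up 43.5% ± 7.15 (SD, n = 3) and 36.8% ± 3.03 (SD, n = 5), lower than the stage control in 5 of 5. *Anxa4* went from 5.11% ± 0.284 (SD, n = 3) to 2.37% ± 0.707 (SD, n = 5), also lower in 5 of 5, and *Anxa6*, *Anxa7* and *Anxa11* had lower shares in 5 of 5 as well. Their own levels did not pass the test, so these lower shares stand beside a larger sum. The shares were described without a test, and scaling between libraries does not affect them.

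The level of *Anxa1* relative to *Anxa2* was 0.509, 0.422 and 0.301 in control iHBs, iHPs and iBECs. In L1L2_Alb cells it was 0.753 for the iHB library, 0.586 and 0.971 for the iHP libraries, and 1.02 and 0.711 for the iBEC libraries. The values of the groups did not overlap. *Anxa1* thus approached or passed the level of *Anxa2* in 2 of the 5 libraries labelled L1L2_Alb.

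**Figure D4:**
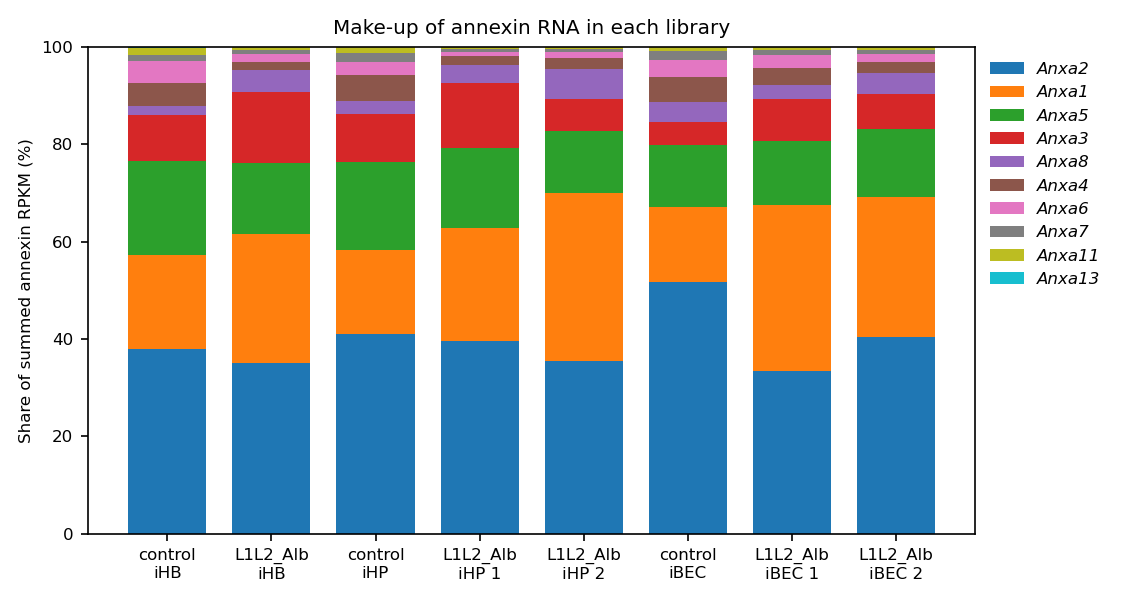
Share of each annexin in the summed annexin RPKM of each library, in percent, stacked to 100 with the libraries in order of stage and genotype label. The *Anxa1* part is larger in each L1L2_Alb library than in the control of the same stage, and the *Anxa2* part smaller.

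The second question was how the annexins vary between the 3 stages. *Anxa3* was lower in iBECs than in iHBs by a difference of -1.28 (SE 0.240, limma adjusted p = 0.0209) and lower than in iHPs by -1.07 (SE 0.213, limma adjusted p = 0.0346). It was the only 1 of 10 members called in either comparison, where 2.78% and 1.67% of all genes tested were called lower and 5.72% and 4.12% were called in either direction. The median of all genes tested was itself -0.25 in iBECs against iHBs and -0.09 in iBECs against iHPs. *Anxa3* was low in control iBECs and in both L1L2_Alb iBEC libraries relative to the iHB and iHP libraries of the same genotype. The call against iHBs was lost without L1L2_Alb iBEC replicate 1 (adjusted p = 0.0612). The call against iHPs was lost without L1L2_Alb iHP replicate 1 (0.107), without iBEC replicate 1 or 2 (0.121 and 0.0809), with no filter (0.0723) and under quantile normalization (0.0515). In L1L2_Alb libraries only neither was called (adjusted p = 0.325 and 0.224).

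Between iHPs and iHBs limma called 0 of 10 annexins and 0 of all genes tested (0.0%), with 1158 genes, none of them an annexin, at an unadjusted p under 0.05. *Anxa11* and *Anxa5* had differences of -0.72 and -0.68 between iBECs and iHBs, with limma adjusted p of 0.123 and 0.192. The comparison of L1L2_Alb iBECs with L1L2_Alb iHPs, with 2 libraries on each side, called 0 of 10 annexins against 3.41% of all genes tested, and 2 of the 10 had an unadjusted p under 0.05. These were *Anxa13*, with a difference of 1.27 and an adjusted p of 0.0732, and *Anxa3*. In this comparison *Anxa13* was at 0 in both iHP libraries and at 1.12 and 1.73 RPKM in the iBEC libraries. It was tested only through control iHBs, a library outside the comparison, so its p carries little weight.

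Proteins that work with annexins were described as a list of 16 partners, all of which were tested. Of these, 5 were called higher in the libraries labelled L1L2_Alb and 1 lower, where 6.2% and 3.37% of all genes tested were. The list was chosen with earlier results of these data known, which limits what this comparison can show. Their median difference was 0.47, against 0.06 for all genes tested. *S100a6*, an S100 calcium sensor that binds ANXA2 and ANXA11, had a difference of 1.77 (limma adjusted p = 0.00916). *Ahnak*, the giant scaffold that binds the ANXA2-S100A10 complex, had 1.49 (adjusted p = 0.0114). *Plaur*, the urokinase receptor, had 1.38 (adjusted p = 0.0190). Without the iHP libraries none of the 3 was called (adjusted p = 0.102, 0.0809 and 0.111), nor was *Plaur* without the iHB libraries (0.0884). With no filter *S100a6* and *Plaur* were not called (0.0613 and 0.054).

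*S100a10*, the partner of ANXA2 in its heterotetramer, was at 428 to 596 RPKM in controls and 793 to 1145 RPKM in L1L2_Alb, with a difference of 0.91 (limma adjusted p = 0.0293). The level of *Anxa2* relative to *S100a10* was 2.49 to 3.41 in controls and 2.07 to 3.58 in L1L2_Alb, so the groups overlapped for the ratio. *Plgrkt*, a plasminogen receptor, had a difference of 0.89 (limma adjusted p = 0.0285). The calls of *S100a10* and *Plgrkt* were lost without L1L2_Alb iBEC replicate 1 (adjusted p = 0.0545 and 0.0521) or replicate 2 (0.0685 and 0.0538), and without any 1 stage (0.0733 to 0.201 and 0.0883 to 0.138). They were also lost with no filter (0.0696 and 0.0524), and that of *S100a10* with pairs averaged (0.0577). *Plg*, the plasminogen gene of hepatocytes, was lower, with a difference of -2.55 (limma adjusted p = 0.00411, and 0.0661 without the iHP libraries). It was at 36.6, 183 and 588 RPKM in control iHBs, iHPs and iBECs and at 1.90 to 204 RPKM in L1L2_Alb.

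Of the other 10 partners, *S100a11*, the S100 partner of ANXA1, came closest, with a difference of 1.03 (limma adjusted p = 0.0548) and 5 of 5 libraries above their controls. It passed the threshold in 6 alternatives, with adjusted p down to 0.0251 under quantile normalization. The formyl peptide receptors *Fpr1* and *Fpr2*, through which ANXA1 acts, had differences of 0.19 and -0.67 with adjusted p of 0.871 and 0.548. Urokinase (*Plau*) had -0.91 (adjusted p = 0.274), and -1.72 (0.0116) without the iBEC libraries. *S100a4*, *Sri*, *Pdcd6*, *Dysf*, *Pla2g4a* and *Plat* were not called either.

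These were cultures that can hold more than one cell type, and in bulk RNA fewer cells of a type and less RNA per cell cannot be told apart. Neutrophils hold much ANXA1 and ANXA3. The 6 neutrophil markers summed to 3161 to 14102 RPKM in controls and 43.6 to 4496 RPKM in L1L2_Alb, with none at 0 in every library. The neutrophil sum was below that of the stage control in 5 of 5 libraries labelled L1L2_Alb. Of 8 listed macrophage markers 7 were in the table. They summed to 2422, 1562 and 1592 RPKM in control iHBs, iHPs and iBECs. In L1L2_Alb they summed to 2236 RPKM in iHBs, 765 and 1586 RPKM in iHPs, and 3213 and 3627 RPKM in iBECs. The macrophage sum was thus below control in iHBs, on either side of it in iHPs and above it in iBECs. The 7 mesenchymal markers summed to 2596 to 4611 RPKM in controls and 735 to 3452 RPKM in L1L2_Alb. None of the 7 macrophage, 6 neutrophil or 7 mesenchymal markers was called by genotype, where 9.57% of all genes tested were called in either direction. Their median differences were 0.15, -3.53 and -1.02. On lists this short, the lack of a call does not show that the markers were unchanged.

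Of the 6 biliary markers 2 were called higher and 1 lower, and of the 7 hepatocyte markers 4 were called lower and 0 higher, where 6.2% of all genes tested were called higher and 3.37% lower. The marker lists too were chosen with earlier results of these data known. The summed biliary markers were at 2443 to 23434 RPKM in controls and 2326 to 11713 RPKM in L1L2_Alb, with 23271 of the 23434 RPKM of control iBECs from *Spp1*. The biliary keratin *Krt7* was at 399.6, 361 and 62.3 RPKM in control iHBs, iHPs and iBECs and at 1470.2 RPKM in L1L2_Alb iHBs, 1361 and 1167 RPKM in the iHP and 319 and 568 RPKM in the iBEC libraries. The summed hepatocyte markers were at 5414 to 11480 and 6705 to 10213 RPKM. Albumin was at 2485, 3088 and 6162 RPKM in control iHBs, iHPs and iBECs, and at 524 RPKM in L1L2_Alb iHBs, 568 and 526 RPKM in the iHP libraries and 5499 and 3357 RPKM in the iBEC libraries. The cultures labelled iBEC thus held more albumin RNA than those labelled iHP in both genotypes. *Apoa1*, another hepatocyte marker, was at 2451, 4249 and 4404 RPKM in control iHBs, iHPs and iBECs and at 8669.7 RPKM in L1L2_Alb iHBs, 8351 and 6225 RPKM in the iHP libraries and 4170.1 and 2889 RPKM in the iBEC libraries, so it was higher than control in iHBs and iHPs and lower in iBECs. Of 3 erythroid markers tested 2 were called lower, and of 3 hepatoblast and 3 endothelial markers tested none was called. The part of these markers in the annexin differences was not tested.

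As a description, the genes whose log2(RPKM + 1) followed each called annexin most closely over the 8 libraries were listed, with Pearson's r. They were *Hpcal1* (0.987), *Abhd4* (0.987) and *Pgap2* (0.986) for *Anxa1*. They were *Mbp* (0.992), *Ccdc59* (0.991) and *Fhl2* (0.990) for *Anxa3*. For *Anxa5* they were *Mboat1* (0.989), *Sms* (0.984) and *Canx* (0.984), and for *Anxa8* *Adam9* (0.990), *Shb* (0.978) and *Uxs1* (0.977). No gene was on more than 1 of these lists. The libraries share their stage and genotype structure, and the highest of 13421 correlations over 8 points is high by its choice.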

How the data were processed

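RNA of the 8 libraries (3 control, 5 L1L2_Alb) was purified with a QIAGEN RNeasy kit, prepared with the TruSeq RNA v2 kit and sequenced on Illumina equipment. The submitters' processing notes name Bowtie 0.12.2 and the mm8 build, and the counting tool and annotation are not given in the sources used here. The authors deposited 1 RPKM value per gene and library without further scaling, a unit that was read from the steps between low values. Of 23471 entries, 4 with repeated symbols were left out, and 3442 of the remaining 23467 genes were at 0 throughout. Short RNA genes gave totals of 18436865 to 33229075 reads per library, and whole reads (tolerance 0.001) for 8 of the 10 annexins, the exceptions being *Anxa6* and *Anxa7*. The 7 of these other than *Anxa13* had 1271 to 118491 reads, so among them depth limits *Anxa13* alone. Reads served for depth and floors, with no count model, and intervals cover counting error only.

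After conversion to log2(RPKM + 1), which understates changes of low genes, limma 3.58.1 (R 4.3.3) was run with a trended prior on the 13421 genes whose mean reached 1 RPKM. The model held genotype and stage. Tests were two-sided and adjusted by the Benjamini-Hochberg method over all genes tested, with a threshold of 0.05. Stage contrasts came from the same model. The difference of the genotype effect between stages was tested with the moderated F test, and L1L2_Alb iBECs were set against L1L2_Alb iHPs on 4 libraries. Each stage has 1 control library, so single stages were described without a test. The genotype fit was also run on simulated data.

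Named genes were all 10 members, the other annexins *Anxa9* and *Anxa10*, a list of 16 annexin partners, the 3 closest genes by correlation for each called annexin, and *Lats1*, *Lats2*, *Ctgf* and *Cyr61* as the check of the genotype. Marker lists of hepatocytes, hepatoblasts, biliary cells, macrophages, neutrophils, mesenchymal, endothelial and erythroid cells were summed. The members and the lists were chosen with earlier results of these data known. Libraries of a pair differed by more than counting noise. The alternatives were another pseudocount (0.1), a minimum mean of 5 RPKM or no filter, upper-quartile scaling, quantile normalization, eBayes without trend, averaged pairs, leaving out a replicate or a stage, L1L2_Alb libraries only for stage contrasts, and the replicate number as a block for the last comparison. Promoter windows came from RefSeq (GRCm38.p6), and no coordinates were taken from the build of the files. In GENCODE M21, *Anxa2*, *Anxa4* and *Anxa11* overlap opposite-strand genes and *Anxa3* a same-strand gene. The kit does not mark strand, so reads of such neighbours cannot be told apart.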

Additional observations from a re-analysis of the deposited data

Results flagged for a closer look

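For *Anxa4*, *Anxa6*, *Anxa11* and *Anxa13* the L1L2_Alb libraries of one stage all lay above their control and those of another stage all below. The share of all genes tested with this pattern was not counted, so it is not a result about annexins. None of the values below, each the difference of log2(RPKM + 1) from control in iBECs minus that in the other stage, was tested for its pair of stages, and with 1 control library per stage a single control can set them. *Anxa13* differed by 4.40 between iBECs and iHBs (1.27 against -3.13) and by 2.47 between iBECs and iHPs (1.27 against -1.20). *Anxa4* differed by 0.88 between iBECs and iHBs (0.15 against -0.72). *Anxa6* differed by 0.89 between iBECs and iHBs (0.26 against -0.63). *Anxa11* differed by 0.47 between iBECs and iHBs (0.22 against -0.25) and by 0.52 between iBECs and iHPs (0.22 against -0.31). The median of all genes tested was 0.22 and 0.26 above control in the L1L2_Alb iBEC libraries, and -0.09 in L1L2_Alb iHBs. The mean iBEC differences of *Anxa4*, *Anxa6* and *Anxa11* were no larger than the higher of these iBEC medians. In single libraries *Anxa4* (0.231) and *Anxa6* (0.316) were above the median of iBEC replicate 1 (0.223). *Anxa11* (0.397) was above that of iBEC replicate 2 (0.264). In the other iBEC replicate each was below the median. In the F test over all stages the smallest adjusted p of the 10 members was 0.230, for *Anxa13*.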

How the results depend on the processing

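With 1 control library per stage, each genotype value rests on 3 control libraries, and each of them counts for a whole stage. Depth limits *Anxa13* alone among the members with recovered reads. Among the genotype results, *Anxa3* was called under all 14 alternatives, *Anxa1* under 12, *Anxa8* under 7, *Anxa5* under 5 and *Anxa2* under 0. The limma model called 4 annexins and 1284 genes by genotype. With no filter it called 2 annexins and 686 genes, without the iHB stage 2 and 326, without the iHP stage 1 and 132, and without the iBEC stage 3 and 1396. The cause was not tested. Leaving out 1 L1L2_Alb replicate gave 2 to 3 annexins and 793 to 1227 genes, with 2 annexins without iHP replicate 1 or iBEC replicate 2.

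Differences by genotype that did not pass the threshold changed sign in a few settings. Without the iHB stage *Anxa4* was 0.18, *Anxa6* 0.073, *Anxa13* 0.033 and *S100a4* 0.10. Without the iHP stage *Anxa11* was 0.015, and without the iBEC stage *Dysf* was -0.0014 and *Fpr1* -0.39. Under quantile normalization *Anxa7* was -0.028. Leaving out 1 replicate gave -0.22 to 0.029 for *Anxa4*, -0.29 to 0.052 for *Anxa6* and -0.089 to 0.59 for *Fpr1*.

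Between iHPs and iHBs the count of 0 genes became 4 with a minimum of 5 RPKM and 2 under upper-quartile scaling, and was 0 to 1 with 1 replicate left out. Between iBECs and iHBs it was 768, and 492 with no filter, 334 in L1L2_Alb libraries only and 488 (without iBEC replicate 2) to 1739 (without iHP replicate 2) with 1 replicate left out. The 1 annexin called there became 0 in L1L2_Alb libraries only and 0 to 1 with 1 replicate left out. Between iBECs and iHPs it was 553, and 211 with no filter and 156 (without iHP replicate 1) to 987 (without iHP replicate 2) with 1 replicate left out. The 1 annexin called there became 0 with no filter, under quantile normalization and in L1L2_Alb libraries only, and 0 to 1 with 1 replicate left out.

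Stage differences that did not pass the threshold also changed sign. For iBECs against iHBs, *Anxa2* was 0.13 and *Anxa8* 0.17 under upper-quartile scaling, *Anxa8* 0.088 under quantile normalization, and *Anxa6* 0.093 and *Anxa13* 1.01 in L1L2_Alb libraries only. With 1 replicate left out *Anxa2* ran from -0.28 to 0.078 and *Anxa8* from -0.19 to 0.27 there, *Anxa13* from -0.039 to 0.38 for iBECs against iHPs, and *Anxa1* from -0.21 to 0.37 for iHPs against iHBs. The causes were not tested.

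For L1L2_Alb iBECs against iHPs the 457 genes called became 0 with no filter, and 0 to 126 with 1 replicate left out, which leaves 3 libraries and assumes that the lone one varies like the pair. There *Anxa1* ran from -1.14 to 0.0091, *Anxa4* from -0.71 to 0.11, *Anxa6* from -0.064 to 1.07, *Anxa7* from -0.58 to 0.13 and *Anxa11* from -0.34 to 0.031. The replicate numbers are shared by title only, and the deviations of equal numbers had a correlation of -0.0216 over 13421 genes. With the replicate number as a block 911 genes and 0 annexins were called.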

Other observations

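The table also held the annexins *Anxa9* and *Anxa10*. *Anxa9*, an annexin that lacks working calcium sites, was at 1.06 to 1.66 RPKM in controls and 0.491 to 1.72 RPKM in L1L2_Alb, and its difference by genotype was -0.08 (limma adjusted p = 0.882). *Anxa10*, an annexin of gastric epithelium, was listed at 0 in 6 libraries and at 0.667 and 1.15 RPKM in L1L2_Alb iBECs, and was too low to be tested. *Anxa13* was also above 0 in both L1L2_Alb iBEC libraries and at 0 in control iBECs. Unlike *Anxa10*, it was highest in control iHBs, at 9.48 RPKM. The share of all genes that were at 0 in control iBECs and above 0 in both L1L2_Alb iBEC libraries was not counted.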
